A study of Mus musculus with 4 samples.

Results

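The genes described here encode co-chaperones, chaperonins and folding factors of the endoplasmic reticulum, measured in the lungs of mice treated with bleomycin, a DNA-damaging drug used to injure the lung in animals. Members were chosen by gene symbol, with earlier results of these data known. They were the DnaJ proteins of types A, B and C, the Cct subunits, and the Pdia, Hsp and Fkbp families. The genes Herpud1, Chac1, Calr, Canx, Xbp1, Atf4, Ddit3 and Sel1l were added by name. The rule leaves out Hspa1a, Hspa8, Hsp90aa1 and Dnajb6. Of 13410 genes named on the array, 91 were members, and 65 of these were measured on 3 or 4 of the 4 arrays and were tested among 8384 genes. The other 26 had too few values, among them Dnajb1, Dnajc10, Dnajc8, Hspa14 and Hspa1b with a value on no array.

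Each of the 4 two-colour arrays set the amplified lung RNA of 1 bleomycin-treated A/J mouse (mice 1 to 4) against 1 shared pool of amplified lung RNA of control A/J animals. A/J is an inbred laboratory strain and was shared by treated and control animals. The sources used here do not give dose, route, time after treatment, age or the number of mice in the pool. Since the pool is 1 control sample, each p-value measures the spread among treated mice and none among controls. A value is a log ratio of both RNAs, read as log2; which RNA is on top of the ratio is not stated. If the order of the titles holds, values above 0 mean more RNA in the treated mouse, but this is not settled, and genes are given by their side of 0. With the pool on top every sign would turn and every size and p would stay. The lung genes Sftpc, Sftpa1 and Scgb1a1 had values on at least 3 arrays, but a ratio does not show their level. Fewer cells of a type and less RNA per cell cannot be told apart in whole lung.

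Newly made proteins fold with the help of chaperones. In the cytosol, Hsp70 proteins bind unfolded chains with the aid of DnaJ co-chaperones, and the ring-shaped chaperonin CCT folds actin, tubulin and other proteins. In the endoplasmic reticulum, where secreted proteins such as surfactant proteins and collagens fold, BiP (Hspa5), Grp94 (Hsp90b1), calnexin, calreticulin and the disulfide isomerases do this work. When unfolded protein builds up there, the unfolded protein response acts through the factors ATF6, XBP1 and ATF4, which bind short elements in the promoters of such genes.

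The promoters that carry these elements are shown first, since Herpud1 and Chac1, which share a kind of element, lay on opposite sides of 0. RefSeq promoter windows (GRCm38.p6, 250 bases before to 50 after each start) were found by symbol for 57 of the 65 tested members. The endoplasmic reticulum stress element ERSE (CCAAT and CCACG with 9 bases between them, on either strand) matched in 5 of these 57 genes (8.77%), against 0.137% of the 27025 genes with a window. Its shorter form ERSE-II (ATTGG and CCACG with 1 base between them) matched in 2 of 57 (3.51%), against 0.0444%; these were Herpud1 and, after its start, Dnajb11. The C/EBP-ATF composite site (TGATGNAA), the kind of site ATF4 binds, matched in 2 of 57 (3.51%), against 4.51%. The element UPRE, TGACG followed by TGG, matched in 1 of 57 (1.75%), against 0.714%. Among the 6671 genes tested on the array that had a window, the shares were 0.225% for ERSE and 0.105% for ERSE-II. They were 2.98% for the C/EBP-ATF site and 1.05% for UPRE. The stretches before the start of Herpud1, Chac1 and the 5 genes with ERSE are printed 5′ to 3′ on the strand of the gene, with the fixed bases of the motif in capitals.

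Herpud1, ERSE-II, chr8:94386357-94386407, + strand: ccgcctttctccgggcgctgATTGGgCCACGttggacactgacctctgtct
Herpud1, C/EBP-ATF, chr8:94386297-94386344, + strand: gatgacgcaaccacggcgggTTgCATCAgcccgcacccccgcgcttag
Chac1, C/EBP-ATF, chr2:119351029-119351076, + strand: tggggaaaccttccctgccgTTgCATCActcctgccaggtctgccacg
Hsp90b1, ERSE (2 matches), chr10:86705513-86705676, - strand: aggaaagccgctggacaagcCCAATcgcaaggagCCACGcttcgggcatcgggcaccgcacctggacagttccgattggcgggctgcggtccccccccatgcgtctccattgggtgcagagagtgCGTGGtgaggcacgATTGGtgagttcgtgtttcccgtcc
Hspa5, ERSE, chr2:34772005-34772063, + strand: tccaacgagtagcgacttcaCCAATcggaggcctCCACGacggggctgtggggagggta
Calr, ERSE, chr8:84847055-84847113, - strand: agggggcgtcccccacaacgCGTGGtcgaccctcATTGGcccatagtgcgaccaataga
Canx, ERSE, chr11:50325780-50325838, - strand: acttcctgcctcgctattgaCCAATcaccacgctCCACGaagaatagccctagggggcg
Dnajc3, ERSE, chr14:118937807-118937865, + strand: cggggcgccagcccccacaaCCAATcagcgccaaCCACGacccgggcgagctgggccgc

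Herpud1 was the 1 tested member with both an ERSE form and a C/EBP-ATF match, and Chac1 had the C/EBP-ATF letters without an ERSE form. These 2 genes ended on opposite sides of 0, as given below. Of the 5 tested members with an ERSE match, Hsp90b1 passed the test and Hspa5, Calr, Canx and Dnajc3 did not. The means of Hsp90b1, Hspa5, Calr and Dnajc3 were above 0, while the 2 probes of Canx lay on opposite sides of it. A match describes the letters in the window only.

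**Figure D1:**
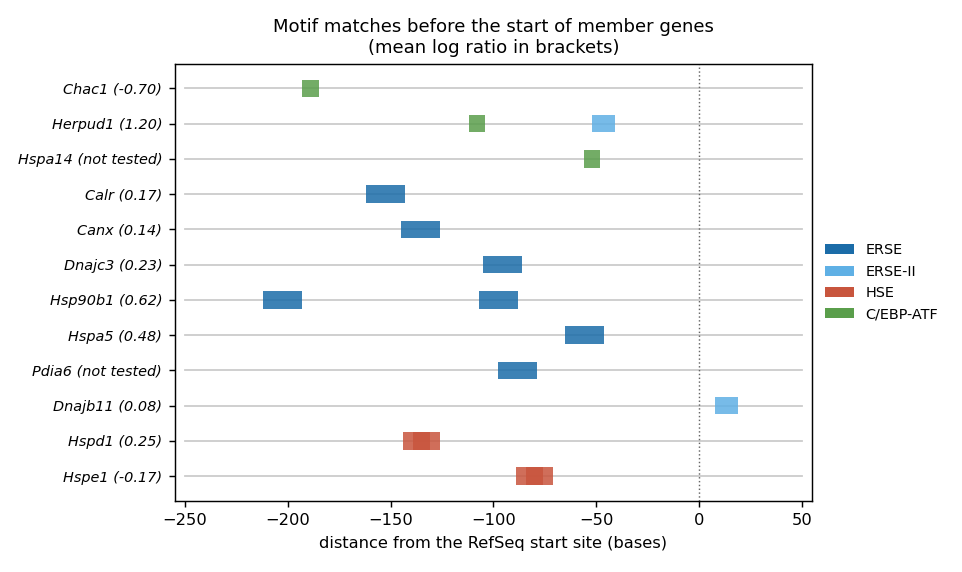
Positions of motif matches in the promoter windows of members, in bases from the RefSeq start site, with the mean log ratio in brackets beside each gene. Coloured boxes are the motifs ERSE, ERSE-II, HSE (heat shock element) and C/EBP-ATF, and Herpud1 (1.20) and Chac1 (-0.70) both carry a C/EBP-ATF match.

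More members lay above 0 than below it. Of the 65 tested, 15 passed the test (limma, Benjamini-Hochberg adjusted p at most 0.05 over all genes), or 23.1%, against 12.5% of all genes. Above 0 there were 11 (background 7.69%) and below 0 there were 4 (background 4.81%). The members were chosen with earlier results of these data known, which these shares do not allow for. Among all 65, 42 means were above 0 (background 50.2%) and 23 below, with a median log ratio of 0.14, against 0.00 for all genes tested. The medians of the members in mice 1, 2, 3 and 4 were 0.09, 0.07, 0.12 and 0.17. The sign was the same on every array with a value in 33 of 65 members (background 46.7%), 26 above 0 (background 24.3%) and 7 below it (background 22.3%). On no member did every array exceed a 2-fold difference. Herpud1 passed whichever mouse was left out, and the other 14 calls were lost in at least 1 such fit. The count fell from 15 to 5, 9, 4 and 5 without mouse 1, 2, 3 or 4. Mouse 1 was most like mouse 2 (r = 0.70 over 62 members) and mouse 3 most like mouse 4 (r = 0.95 over 50 members), with the pool shared by all arrays. The same pairs were closest over all genes, at r = 0.715 for mice 1 and 2 and 0.855 for mice 3 and 4. With these pairs as a random block, 7 members passed: Herpud1, Xbp1, Chac1, Cct2, Cct7, Dnaja1 and Fkbp1a.

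**Figure D2:**
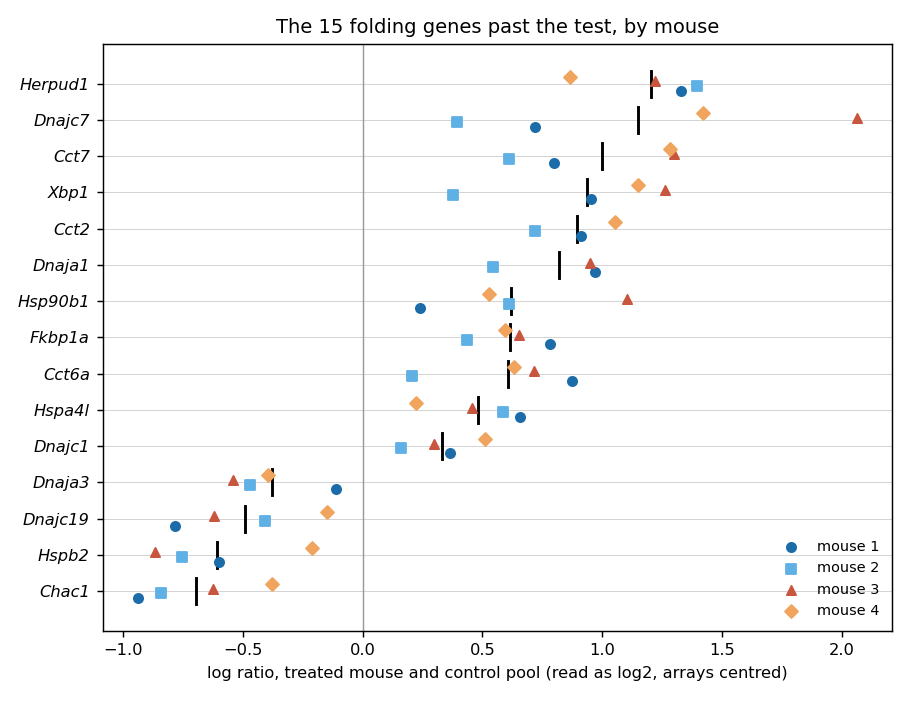
Log ratio (x axis, read as log2, arrays centred) in each mouse for the 15 members past the test, with a black bar at the mean. The points of each gene lie on 1 side of 0; Dnajc7 spreads most, from 0.39 to 2.06.

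**Figure D3:**
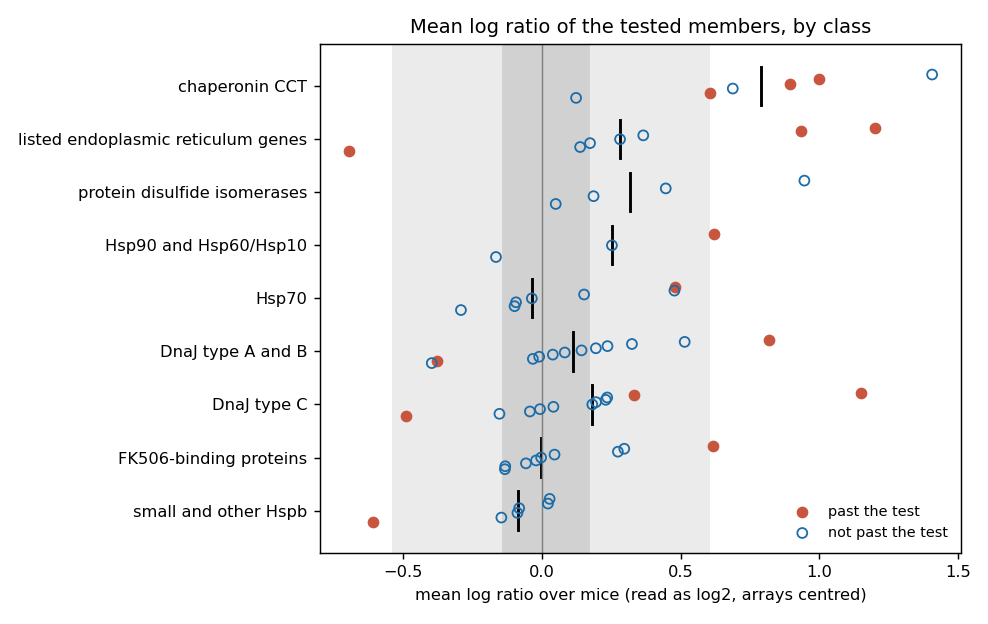
Mean log ratio over mice of the 65 tested members by class, filled where past the test, with a black bar at the class median. The dark and light grey bands hold the middle 50% (-0.14 to 0.17) and 90% (-0.54 to 0.60) of all genes tested, and 5 of the 6 chaperonin genes lie beyond the light band, Cct6a just past its edge.

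Among the endoplasmic reticulum genes listed by name, 2 passed above 0 (background 7.69%) and 1 passed below 0 (background 4.81%). The other 4 tested did not pass, and the class median was 0.28. Herpud1 encodes a membrane protein of the route by which misfolded proteins leave the endoplasmic reticulum for the proteasome. It had log ratios of 1.33, 1.40, 1.22 and 0.86 in mice 1 to 4. All lay far above 0, with a mean of 1.20 ± 0.24 (SD, n = 4; limma adjusted p = 0.00653), a 2.30-fold difference if the base is 2. Xbp1, a transcription factor of the unfolded protein response, had 0.95, 0.38, 1.26 and 1.15. Mouse 2 was the lowest, and the mean was 0.94 ± 0.39 (SD, n = 4; limma adjusted p = 0.0220). The call for Xbp1 was lost without mouse 1, 3 or 4, at adjusted p up to 0.0762.

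Chac1, a glutathione-degrading enzyme induced by ATF4, was below 0 in every mouse. Its log ratios were -0.94, -0.84, -0.62 and -0.38, and the mean was -0.70 ± 0.25 (SD, n = 4; limma adjusted p = 0.0188). The call was lost without mouse 1, 2 or 3, at adjusted p up to 0.0587. ATF4 itself acts upstream of Chac1, and its gene Atf4 had -0.03, 0.33, 0.49 and 0.34. With a mean of 0.28 ± 0.22 (SD, n = 4) it missed the threshold (limma adjusted p = 0.118). Ddit3, which encodes CHOP, a factor downstream of ATF4, had 0.57, 0.43, 0.12 and 0.34. Its mean of 0.37 ± 0.19 (SD, n = 4) was just short of the threshold (limma adjusted p = 0.0524), and it passed without centring of the arrays (0.0449). Ddit3 did not pass with the random block (limma adjusted p = 0.0985) or with any mouse left out (0.0627 to 0.146). Atf4 and Chac1 RNA thus lay on opposite sides of 0 in mice 2, 3 and 4, and the ATF4 protein was not measured.

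Of the lectin chaperones of glycoproteins, Calr (calreticulin) had 0.17, 0.04, 0.16 and 0.32, with a mean of 0.17 ± 0.12 (SD, n = 4; limma adjusted p = 0.167). Canx (calnexin) was measured by 2 probes that went apart. Probe A had -0.37, -0.18, -0.03 and -0.18, and probe B had 0.47, 0.16, 0.64 and 0.60. Each probe kept its sign in all 4 mice. Tested on its own, a setting added after these values were seen, probe B passed at 0.47 ± 0.22 (SD, n = 4; limma adjusted p = 0.0356 over 9909 probes) and probe A did not (-0.19 ± 0.14, SD, n = 4; limma adjusted p = 0.158). The average of both, 0.14 ± 0.15 (SD, n = 4; limma adjusted p = 0.287), stands for neither. Sel1l, a partner of the ubiquitin ligase Syvn1, had values in mice 2 and 3 only and was not tested.

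Hspa5 and Hsp90b1, the Hsp70 and Hsp90 chaperones of the endoplasmic reticulum, were above 0 in all 4 mice. Hsp90b1 had 0.24, 0.61, 1.10 and 0.53, with a mean of 0.62 ± 0.36 (SD, n = 4; limma adjusted p = 0.0450). Hspa5 had 0.26, 0.38, 0.89 and 0.37, with a mean of 0.48 ± 0.28 (SD, n = 4; limma adjusted p = 0.0524). In both genes mouse 3 was the highest and mouse 1 the lowest. The call for Hsp90b1 was lost whichever mouse was left out, at adjusted p up to 0.112. Hspa5 passed with arrays scaled to the same spread (limma adjusted p = 0.0336) and with genes that had all 4 values (0.0466). It did not pass with the random block (limma adjusted p = 0.107) or with any mouse left out (0.0862 to 0.121).

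Of the 4 tested disulfide isomerases, which form and rearrange disulfide bonds, 0 passed limma (background 12.5%). An unadjusted p under 0.05 was found for 3 (background 31.8%). No Pdia probe passed when probes were tested singly. Pdia3, the isomerase that works with calnexin and calreticulin, had -0.14, 1.62 and 1.36 in mice 1, 3 and 4 and no value in mouse 2. Mouse 1 stood apart, and the mean was 0.95 ± 0.95 (SD, n = 3; limma adjusted p = 0.156). Without mouse 1 it was 1.49 and passed (limma adjusted p = 0.0283), on 2 values, and it also passed with robust eBayes and a trend (0.0409). Pdia4 had 0.60, 0.01, 0.51 and 0.66, with mouse 2 near 0 and a mean of 0.45 ± 0.29 (SD, n = 4; limma adjusted p = 0.0653). It passed without mouse 2, at 0.59 (limma adjusted p = 0.0286). With the random block neither Pdia3 nor Pdia4 passed (limma adjusted p = 0.235 and 0.135). The mean was 0.19 ± 0.11 (SD, n = 4) for Pdia5 and 0.05 ± 0.03 (SD, n = 3) for Pdia2. Pdia6 had 0.07 and 0.08 in mice 1 and 3 only and was not tested. Plasma and B cells, which are rich in this machinery, could be followed by 2 tested markers, Ms4a1 and Mzb1, with means of -0.04 and 0.13, and neither passed. Of 3 tested markers of alveolar type II cells, which secrete surfactant, 1 passed above 0 (Sftpa1), and their means ranged from 0.05 to 1.28. Both tested endothelial markers passed above 0 (Pecam1 and Tek, median 1.12), 2 of 3 neutrophil markers passed below 0 (median -2.08) and 3 of 4 fat markers passed below 0 (median -1.74). Of the tested markers of macrophages, 1 of 3 passed above 0, and of those of club cells and fibroblasts 0 of 3 each. The part of these cells in the members' values was not tested.

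DnaJ proteins of the endoplasmic reticulum hand clients to BiP. Dnajc1 had 0.37, 0.16, 0.30 and 0.51 and passed with a mean of 0.33 ± 0.15 (SD, n = 4; limma adjusted p = 0.0495). It was lost whichever mouse was left out, at adjusted p up to 0.149. Dnajb9 had 0.45, 0.41 and 0.12 in mice 1, 2 and 3 (mean 0.32 ± 0.18, SD, n = 3; limma adjusted p = 0.104). Dnajc3 had 0.21, 0.45, 0.16 and 0.09 (mean 0.23 ± 0.15, SD, n = 4; limma adjusted p = 0.120), and Dnajb11 changed sign between mice, with a mean of 0.08 ± 0.12 (SD, n = 4; limma adjusted p = 0.478). The genes above 0 in every mouse with a value were thus Dnajc1, Dnajb9 and Dnajc3.

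The chaperonin CCT had the highest class median. Of its 8 subunit genes named on the array, 6 were tested. Not tested were Cct3, with -0.10 in mouse 1 only, and Cct6b, with -0.175 in mouse 1 and 0.01 in mouse 4. Of the 6 tested, 3 passed above 0 (background 7.69%) and 0 below (background 4.81%). All 6 means were above 0 (background 50.2%), with a median of 0.79. Cct7 had 0.80, 0.61, 1.30 and 1.28, with a mean of 1.00 ± 0.35 (SD, n = 4; limma adjusted p = 0.0152). Cct2 had 0.91, 0.72 and 1.05 in mice 1, 2 and 4, with a mean of 0.89 ± 0.17 (SD, n = 3; limma adjusted p = 0.0135). Cct6a had 0.87, 0.21, 0.71 and 0.63, with a mean of 0.61 ± 0.28 (SD, n = 4; limma adjusted p = 0.0318). In all 3 genes mouse 2 was the lowest.

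The other chaperonin genes differed more between mice. Cct5 had -0.18, 1.30, 2.62 and 1.89, the widest spread of any tested member, with a mean of 1.41 ± 1.19 (SD, n = 4; limma adjusted p = 0.0879). Without mouse 1 its mean was 1.94 and it passed (limma adjusted p = 0.0347). Cct4 had 0.31, 0.14, 1.36 and 0.94, with a mean of 0.69 ± 0.56 (SD, n = 4; limma adjusted p = 0.0882). Its values in mice 1 and 2 average 2 probes and those in mice 3 and 4 come from 1; that probe alone had 0.14, 0.16, 1.36 and 0.94. Cct4, Cct5 and Cct7 were thus higher in mice 3 and 4 than in mice 1 and 2. With robust eBayes and a trend in the variance, Cct4 and Cct5 passed (limma adjusted p = 0.0366 and 0.00908). With the random block neither did (limma adjusted p = 0.121 and 0.136). Cct8 had a mean near 0 (0.12 ± 0.16, SD, n = 3; limma adjusted p = 0.435). The class medians in mice 1 to 4 were 0.56, 0.41, 1.30 and 1.05. The calls for Cct2 (without mouse 1 or 4), Cct6a (without mouse 1, 3 or 4) and Cct7 (without mouse 4) were lost, with adjusted p reaching 0.0973.

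**Figure D4:**
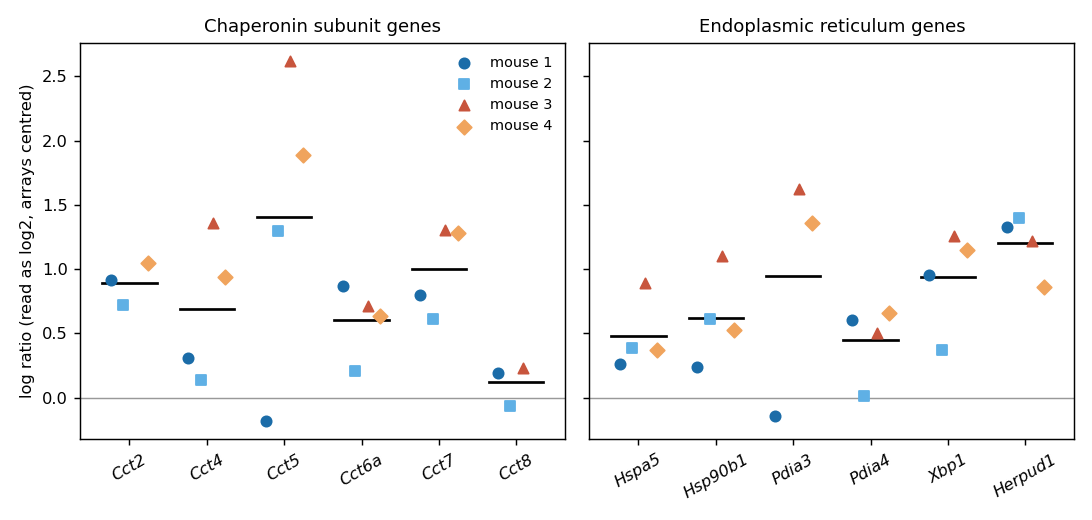
Log ratio (y axis, read as log2, arrays centred) in each mouse for the tested chaperonin subunit genes (left) and 6 genes of the endoplasmic reticulum (right), with a black bar at the mean. Cct5 spans -0.18 to 2.62 and Pdia3 -0.14 to 1.62, with mouse 1 lowest in both, while Herpud1 stays between 0.86 and 1.40.

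Of 12 tested DnaJ genes of types A and B, 1 passed above 0 (background 7.69%) and 1 below (background 4.81%). In all 16.7% passed, near the background of 12.5%, and the median was 0.11. Dnaja1, a cytosolic partner of Hsp70, had 0.97, 0.55 and 0.95 in mice 1, 2 and 3. Its mean was 0.82 ± 0.24 (SD, n = 3; limma adjusted p = 0.0226), lost without mouse 1 or 3 at adjusted p up to 0.0810. Dnaja3, a co-chaperone of mitochondria, passed below 0 at -0.38 ± 0.19 (SD, n = 4; limma adjusted p = 0.0490). It was lost whichever mouse was left out, at adjusted p up to 0.140, and its probes went apart. Probe A had 0.07, -0.02, 0.02 and 0.16, and probe B had -0.29, -0.92, -1.11 and -0.95. The call thus came from probe B, which alone gave -0.82 ± 0.36 (SD, n = 4; limma adjusted p = 0.0230 over all probes), whereas probe A gave 0.06 ± 0.07 (SD, n = 4; limma adjusted p = 0.588).

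Dnajb4, another Hsp70 partner, showed the same kind of split. Its probe A had 1.24, 1.15, 0.27 and 0.43, highest in mice 1 and 2, and passed on its own at 0.77 ± 0.49 (SD, n = 4; limma adjusted p = 0.0494 over all probes). Its probe B lay near 0 in the 3 mice with a value, at -0.01, -0.08 and -0.04 in mice 1, 3 and 4. The average was short of the threshold at 0.51 ± 0.48 (SD, n = 4; limma adjusted p = 0.119), and its value in mouse 2 rests on probe A alone. Dnajb3 had -0.70, -0.54, -0.17 and -0.18, below 0 in every mouse, with a mean of -0.40 ± 0.27 (SD, n = 4; limma adjusted p = 0.0732). The genes left out by the rule also lay above 0: Dnajb6 had a mean of 1.05 ± 0.12, Hspa8 of 0.93 ± 0.15, Hspa1a of 2.61 ± 0.66 (SD, n = 4) and Hsp90aa1 of 1.51 ± 0.17 (SD, n = 3).

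**Figure D5:**
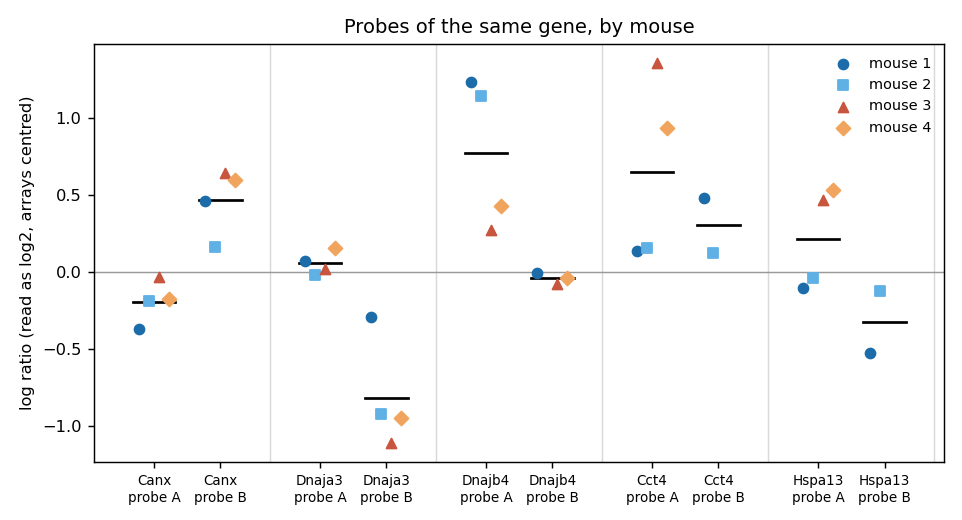
Log ratio (y axis, read as log2, arrays centred) of each probe with values, by mouse, for 5 members with 2 such probes; black bars are probe means. The 2 probes of Canx lie on opposite sides of 0 in every mouse, and for Dnaja3 and Dnajb4 1 probe lies near 0 and the other away from it.

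Of 11 tested DnaJ genes of type C, 2 passed above 0 (background 7.69%) and 1 below (background 4.81%), with a median of 0.18. Beside Dnajc1, Dnajc7, a co-chaperone that binds both Hsp70 and Hsp90, had 0.72, 0.39, 2.06 and 1.42. Mice 3 and 4 were far above mice 1 and 2, as for Cct5, and the mean was 1.15 ± 0.74 (SD, n = 4; limma adjusted p = 0.0495). Dnajc19, a subunit of the import motor of the mitochondrial inner membrane, had -0.78, -0.41, -0.62 and -0.15, with a mean of -0.49 ± 0.28 (SD, n = 4; limma adjusted p = 0.0481). The call for Dnajc7 was lost without mouse 1, 3 or 4 and that for Dnajc19 whichever mouse was left out, at adjusted p up to 0.144. The 8 type C genes that did not pass had means from -0.15 to 0.24.

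Hspd1 and Hspe1 encode Hsp60 and Hsp10, the chaperonin of mitochondria and its lid. They are neighbours and are read in opposite directions from a shared promoter. A stretch of that promoter with 2 overlapping matches of the heat shock element HSE (GAA, TTC and GAA, or TTC, GAA and TTC, with 2 bases between each, on either strand) is shown because it serves both genes; on the strand of Hspe1 it reads as follows, and the stretch before Hspd1 is its reverse complement.

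Hspe1, HSE (2 matches), chr1:55088039-55088096, + strand: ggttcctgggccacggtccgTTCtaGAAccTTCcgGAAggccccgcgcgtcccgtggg

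HSE matched in 2 of the 57 members with a window (3.51%), and both were these genes. The share was 0.662% of all genes and 0.6% of genes tested on the array. Hspd1 had 0.18, 0.35, 0.26 and 0.22, with a mean of 0.25 ± 0.07 (SD, n = 4; limma adjusted p = 0.0573). Hspe1 had -0.12, 0.23, -0.67 and -0.11, with a mean of -0.17 ± 0.37 (SD, n = 4; limma adjusted p = 0.475). Hspd1 was above 0 in every mouse, Hspe1 only in mouse 2, and neither passed.

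Of 7 tested Hsp70 genes, 1 passed above 0 (background 7.69%) and 0 below (background 4.81%). This share of 14.3% was near the background of 12.5%, and the median was -0.04. Hspa4l, a nucleotide exchange factor of the Hsp110 group, had 0.66, 0.59, 0.46 and 0.22, with a mean of 0.48 ± 0.19 (SD, n = 4; limma adjusted p = 0.0298). It was lost without mouse 1, 2 or 3, at adjusted p up to 0.0905. Apart from Hspa5, the Hsp70 genes that did not pass had means between -0.29 (Hspa4) and 0.15 (Hspa13).

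Of 9 tested genes of FK506-binding proteins, which are prolyl isomerases, 1 passed above 0 (background 7.69%) and 0 below (background 4.81%). This share of 11.1% was near the background of 12.5%, and the median was 0.00. Fkbp1a, the small cytosolic form that binds FK506 and rapamycin, had 0.78, 0.43, 0.65 and 0.59. These were close together, with a mean of 0.61 ± 0.14 (SD, n = 4; limma adjusted p = 0.0128), lost without mouse 4 (0.0503). Fkbp9, a form of the endoplasmic reticulum, had 0.31, 0.07, 0.52 and 0.30 (mean 0.30 ± 0.18, SD, n = 4; limma adjusted p = 0.0828). Fkbp5, a glucocorticoid-induced Hsp90 co-chaperone, had 0.32, 0.01 and -0.19 in mice 1, 2 and 4 and did not pass, with a mean of 0.05 ± 0.26 (SD, n = 3).

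The group of small and other Hspb symbols was formed by symbol and not by protein family. Its 6 tested genes were Hspb2, Hspb7, Hspb11, Hspbap1, Hspbp1 and Hsp25-ps1. Of these, 1 passed below 0 (background 4.81%). Above 0 there were 0 (background 7.69%). In all 16.7% passed, near the background of 12.5%, and the median was -0.09. Hspb2, a small heat shock protein of heart and skeletal muscle, had -0.60, -0.75, -0.87 and -0.21, with a mean of -0.61 ± 0.28 (SD, n = 4; limma adjusted p = 0.0318). It was lost without mouse 1, 2 or 3, at adjusted p up to 0.0910. Of 8 tested markers of striated muscle, 2 passed below 0 and 0 above; their means ranged from -4.90 to -0.17, and their medians in mice 1 to 4 were -2.95, -2.07, -0.23 and -0.56. Hspb7, another muscle form, which was chosen later, changed sign between mice, with a mean of -0.09. The median of the muscle markers in mouse 3 lacks Tnnc2, the marker with the lowest mean, which had no value there. The part of muscle tissue in the value of Hspb2 was not tested.

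Beyond the members, 68 of 89 other folding genes named on the array were tested, from a list of partners, cofactors and quality control enzymes drawn up by role with earlier results of these data known. Of these, 14 passed above 0 (background 7.69%) and 4 below (background 4.81%), or 26.5% in all (background 12.5%), with a median of 0.09 against 0.00 for all genes tested. In the cytosol, Hsph1, an Hsp110 protein, had a mean of 1.63, the calcyclin-binding protein gene Cacybp of 1.46 and Stip1, which links Hsp70 to Hsp90, of 1.27. St13, which also binds Hsp70, had a mean of 0.44 and the co-chaperone Bag3 of 0.41. Pdcl3, a phosducin-like gene whose protein binds the chaperonin, had 0.43. Pfdn1 and Pfdn6, subunits of prefoldin, which passes clients to the chaperonin CCT, passed below 0 at -0.77 ± 0.36 and -0.71 ± 0.34 (SD, n = 4). They lay below 0 in all 4 mice, while Cct2, Cct6a and Cct7 lay above 0 in every mouse with a value. Pfdn5, named after its value was seen, did not pass (0.13 ± 0.15, SD, n = 4).

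In the endoplasmic reticulum, the collagen chaperone gene Serpinh1 had a mean of 0.97 ± 0.20 (SD, n = 4) and Syvn1, the ubiquitin ligase of the degradation route in which Herpud1 acts, of 0.74 ± 0.17 (SD, n = 4). Edem1, a lectin-like factor of the same route, had a mean of 0.37, while Os9, a lectin that delivers glycoproteins to the Syvn1 complex, had -0.44 ± 0.15 (SD, n = 4). The thioredoxin-like genes Txndc12, Txndc5 and Erp44 had means of 0.72, 0.62 and 0.43, and Creld2, a gene of the unfolded protein response, of 0.48. Eif2ak3, which encodes the stress sensor PERK, had a mean of 0.35. The sensor genes Atf6 and Ern1, named after their values were seen, had means below 0 and did not pass. These were -0.26 ± 0.35 (SD, n = 4; limma adjusted p = 0.257) for Atf6 and -0.19 ± 0.07 (SD, n = 3; limma adjusted p = 0.182) for Ern1. Mogs, the glucosidase that trims the first glucose from glycoproteins, passed below 0 at -0.36. The limma adjusted p of the 18 other folding genes past the test ranged from 0.00745 to 0.0486. Of these, 6, 7, 5 and 6 passed without mouse 1, 2, 3 or 4.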

How the data were processed

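Each of 4 two-colour arrays compared 1 bleomycin-treated A/J mouse with 1 control pool, per the labels. The deposited table gives 1 log2 ratio per spot and array (17280 spots); the base is not stated and was taken as 2. The sources used here do not give scanner, dyes, background correction, normalization or the rule for empty spots. Signal is not part of the table, so dim spots could not be judged, and the number of arrays limits precision.

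Probes were named through the platform's annotation (14722 with 1 symbol, 1 with several, 2557 spots unlisted); 14445 matched a RefSeq gene (GRCm38.p6) by ID, which changed 0 symbols. Arrays were centred on the median, and probes of a symbol were averaged. Means were tested against 0 with limma 3.58.1 (R 4.3.3; lmFit, eBayes, two-sided, Benjamini-Hochberg over 8384 genes, threshold 0.05). The code was tested on simulated data. Errors are SDs between mice; nothing in the labels says more of how the mice were kept, so p-values measure the spread between these samples.

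Members, gene lists, tests and alternatives were chosen with earlier results of these data known. Named genes are all members past the test, the 10 farthest from 0 that did not pass, the 8 listed genes, all Cct and Pdia members, a few chaperones whatever their value (such as Hspa5 and Hspd1), and other folding genes past the test. Others are said to be chosen later or stand in ranges. Alternatives were other centring, scaling, filters, probe rules and variance models, a random block and leaving out mice. Promoter sequences are RefSeq's (GRCm38.p6), and protein sequences were not used here. Other columns of per-sample values numbered 0.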

Additional observations from a re-analysis of the deposited data

Results flagged for a closer look

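Of 47 members with a value in all 4 mice, 1 had a mouse far from the other 3: Dnajc4, a type C DnaJ gene, with -0.36 in mouse 1 against 0.09, 0.05 and 0.05 in mice 2, 3 and 4. The gap between mouse 1 and the nearest mouse was 0.913 of the whole range, above Dixon's critical value for 4 samples. Chance alone flags about 1 in 20 genes at this level. Dnajc4 did not pass limma (mean -0.04 ± 0.21, SD, n = 4; adjusted p = 0.792).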

How the results depend on the processing

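Over all genes, 1048 passed the main test, 689 with robust eBayes and a trend, 402 with mice 1 and 2, and mice 3 and 4, as a random block, and 296 to 573 with 1 mouse left out. With the random block, 7 members passed in place of 15, 6 above and 1 below 0, and 8 other folding genes in place of 18. Leaving out 1 mouse left 4 to 9 members, 3 to 9 above and 0 to 2 below 0, and 5 to 7 other folding genes. With robust eBayes and a trend, 14 members passed, 11 of them among the 15, with 12 above 0 and 2 below in place of 11 and 4, and 10 other folding genes passed. With a value on at least 2 arrays, 10 members passed, all among the 15 and without Dnaja3, Dnajc1, Dnajc19, Dnajc7 and Hsp90b1, 8 above and 2 below 0, and the median of the members was 0.082 in place of 0.14; it was 0.082 to 0.19 with 1 mouse left out. With probes tested singly, a setting chosen after seeing the data, 17 members had a probe past the test, among them the 15. No centring, equal spread, 4 values, the best probe and the median of probes kept the count of members past the test between 14 and 16. The means of Canx (-0.19) and Dnaja3 (0.058) changed sign when the probe with the most values was used in place of the average. Both probes of each of these genes had 4 values, so the probe listed first was taken. The other probe had 0.47 for Canx and -0.82 for Dnaja3, on the side of the average. Fkbp5 changed sign without mouse 1 (-0.091, and up to 0.16 without mouse 4). Hspe1 did so without mouse 3 (0.00067, and down to -0.30 without mouse 2). With the natural logarithm, 2 members in place of 0 would exceed 2-fold on every array. Beyond fewer samples or genes tested, the causes were not tested. Without signal or background values, depth cannot be judged. Over the named members and these settings, 349 values kept side and call, 60 lost the call, 12 gained it and 4 changed sign. No paired analysis was possible because the arrays form 1 group.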

Other observations

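Hspb2 and its neighbouring gene Cryab, which encodes another small heat shock protein of muscle, lay on opposite sides of 0. Cryab is no member by the symbol rule and was looked up after the value of Hspb2 was seen. It had log ratios of 0.87, 0.22, 1.03 and 0.41 in mice 1 to 4, with a mean of 0.63 ± 0.38 (SD, n = 4; limma adjusted p = 0.0481), against -0.60, -0.75, -0.87 and -0.21 for Hspb2. Mouse 3 was the farthest from 0 in both genes, in opposite directions, and the difference between the genes was not tested.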
